A study of Homo sapiens with 2 samples.

Results

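Cytosolic ribosomal protein transcripts made up 17.4% of the RNA molecules counted in the 6114 ovarian carcinoma cells whose sample tags could be read. Between sets of cells that carried different sample tags, single genes of the set differed by a median of 1.17-fold, and RPL39L and RPL23 were the ones past 1.5-fold. The set holds every gene whose symbol is RPL or RPS with a number and an optional A, X, L or Y ending, plus RPLP0, RPLP1, RPLP2 and RPSA, with at least 1000 unique molecular identifiers (UMIs, 1 for each captured transcript). Y-linked copies and the RPS6 kinase genes were left out. Of 36601 genes, 81 symbols fitted and 79 genes passed the minimum, 32 of the small and 47 of the large ribosomal subunit. RPL10L (13 UMIs) and RPL3L (16 UMIs) fell short of it, while RPL39L (19501 UMIs), RPS27L (42737 UMIs) and RPS10 (50135 UMIs) were the lowest inside it.

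The cells were OVCAR5, a human ovarian carcinoma line, here carrying a reporter that senses interferon-gamma and a cyan fluorescent marker (CFP+). The labels name 18 conditions: cells unstimulated or given 1, 10 or 100 ng/ml interferon-gamma for 2, 6, 12 or 24 h, and 2 further conditions of frozen cells (unstimulated and 100 ng/ml, both 24 h). All were combined in 1 suspension and read as a 3′ single-cell gene expression library with a second library for antibody hashtags. Cells carried combinations of 2 of 8 hashtags, and 18 such pairs were read in 6114 of 7201 filtered cells. Which pair stands for which condition was not given in the sources used here, so a pair such as 5+7 is named by its hashtags, and doses, times and freezing were not compared. Each pair is a set of cells of 1 library without a replicate. All intervals are 95% and cover counting error only, and no p-values are given. A ratio of the highest over the lowest pair was taken after both were picked from the 18, and its interval ignores that choice.

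A ribosome is built from ribosomal RNA and a fixed set of proteins, most of them normally present as 1 copy. Their genes are usually expressed together and strongly. Most of their mRNAs begin with a terminal oligopyrimidine tract, a C followed by a run of C and T, through which growth signalling by mTOR controls their translation. Several of these proteins also act outside the ribosome: RPL5, RPL11 and RPL23 can bind MDM2, the main negative regulator of p53, and RPL13A is part of the interferon-gamma-activated GAIT complex that represses translation of certain inflammatory mRNAs. The methods here count transcripts, so they say nothing of ribosome number or of translation.

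The 18 pairs held 166 to 493 cells each, with median depths from 27824.5 to 32945 UMIs per cell. The 5 epithelial markers (KRT8, KRT18, KRT7, KRT19 and EPCAM) had 14068 to 642198 UMIs, against 0 to 2 for the 3 leukocyte, 4 to 61 for the 2 endothelial and 1 to 165 for the 2 fibroblast markers. A group of 189 cells high in the keratin KRT81 stood apart. Of these 120 had a hashtag pair, against 6114 of all 7201 filtered cells, and they were spread over all pairs (2 to 12 cells in each). The group is described on its own after the pairs, and values that turn on it are given with and without it.

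The RefSeq start sites of the members were examined because the pyrimidine tract lies in the first transcribed bases. In the RefSeq table (GRCh38.p14) 63 of the 79 members had an entry. A start with C was listed for 49 of them (77.8%), and a tract of C followed by at least 4 further pyrimidines for 46 (73.0%). The same tract was listed for 7.45% of 7843 other genes with at least 1000 UMIs. Windows of 30 bases, 15 before and 15 from the annotated start on, are shown for members that the results turn on. RPL39L, RPL23, RPL7 and RPL5 had no entry. Capitals mark the unbroken run of C and T that begins with C at the start, and windows without capitals do not begin with C there. The first 7 carry a tract and the last 4 do not. Each start is that of a RefSeq transcript of the gene named.
RPLP1, chr15:69452803-69452832, + strand: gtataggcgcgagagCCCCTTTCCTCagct
RPL13A, chr19:49487593-49487622, + strand: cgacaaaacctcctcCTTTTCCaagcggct
RPL27A, chr11:8682777-8682806, + strand: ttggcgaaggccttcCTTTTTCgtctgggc
RPS24, chr10:78033848-78033877, + strand: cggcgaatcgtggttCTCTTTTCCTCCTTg
RPL22, chr1:6199581-6199610, - strand: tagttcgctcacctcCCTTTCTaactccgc
RPS14, chr5:150449725-150449754, - strand: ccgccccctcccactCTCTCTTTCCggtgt
RPL35A, chr3:197950175-197950204, + strand: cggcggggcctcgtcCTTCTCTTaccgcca
RPS27L, chr15:63157463-63157492, - strand: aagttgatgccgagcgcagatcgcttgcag
RPS26, chr12:56041903-56041932, + strand: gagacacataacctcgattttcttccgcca
RPL4, chr15:66504841-66504870, - strand: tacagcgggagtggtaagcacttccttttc
RPL27, chr17:42998404-42998433, + strand: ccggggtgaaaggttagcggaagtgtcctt

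An annotated start a few bases off would hide or create a tract, so these counts describe the annotation. The longest run of C and T in the 15 bases from the start on was 10 for RPL4 and 9 for RPS26, although neither begins with it, 5 for RPL27, and 3 for RPS27L, a paralog known as a p53 target. Of the genes outside the set, 13 of 17 matched genes on a list of other tract-bearing mRNAs (translation factors, TPT1, NPM1 and others) had the tract. It was listed for 4 of 29 ribosome biogenesis genes and 5 of 69 mitochondrial ribosomal protein genes. In the window of 250 bases before to 50 after a start, the motif CCGGAAG on either strand was found in 23 of the 63 members (36.5%), against 24.8% of the other expressed genes. CACGTG was found in 4 (6.35% against 13.4%), and TATAAA in 5 (7.94% against 7.66%). None of the 3 motifs contains another, and a match is only a match of letters.

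Summed over the members, ribosomal protein transcripts ranged from 16.7% of gene UMIs in pair 7+8 to 18.8% in pair 5+7, with a median of 17.2%. The highest pair stood 1.12-fold above the lowest (interval 1.120 to 1.124). Pairs 5+7 (18.8%), 1+5 (18.7%) and 3+5 (18.2%) led, pair 3+7 followed at 17.8%, and the other 14 pairs lay between 16.7% and 17.4%. Neighbours in that lower range were often no further apart than counting error: pairs 5+6 and 2+4 stood at 17.25% each, and pairs 2+8 and 1+6 at 17.11% each. Small and large subunit transcripts kept their proportion, with 0.681 to 0.701 small subunit UMIs for each large subunit UMI. Because every value is a share of the library, a share moves when other transcripts take more or less of it.

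Other measures of the same pairs moved too, and their part in the member share was not tested. The transcription factor IRF1, an early interferon target, was at 43.7 to 70.8 CPM (UMIs scaled to a common total per pair) in pairs 2+4, 1+5, 1+2, 3+5 and 5+7 and at 808 to 1357 CPM in the other 13. The pairs with the 3 highest member shares were all among those 5, but 1+2 (17.4%) and 2+4 (17.2%) were the sixth and the tenth. A list of 14 interferon-responsive genes summed to 2847 CPM in pair 1+5 and 21314 CPM in pair 7+8, the pair with the lowest member share. A list of 18 G2/M genes summed to 2115 CPM in pair 3+4 and 3860 CPM in pair 5+7. Pairs 1+5 (3856 CPM) and 3+5 (3633 CPM) came next to 5+7, and pair 7+8 was at 3598 CPM. Mitochondrially encoded transcripts took 10.2% (3+5) to 12.1% (7+8) of UMIs. Over non-mitochondrial UMIs the member share still ran from 19.0% in 7+8 to 21.2% in 5+7.

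**Figure D1:**
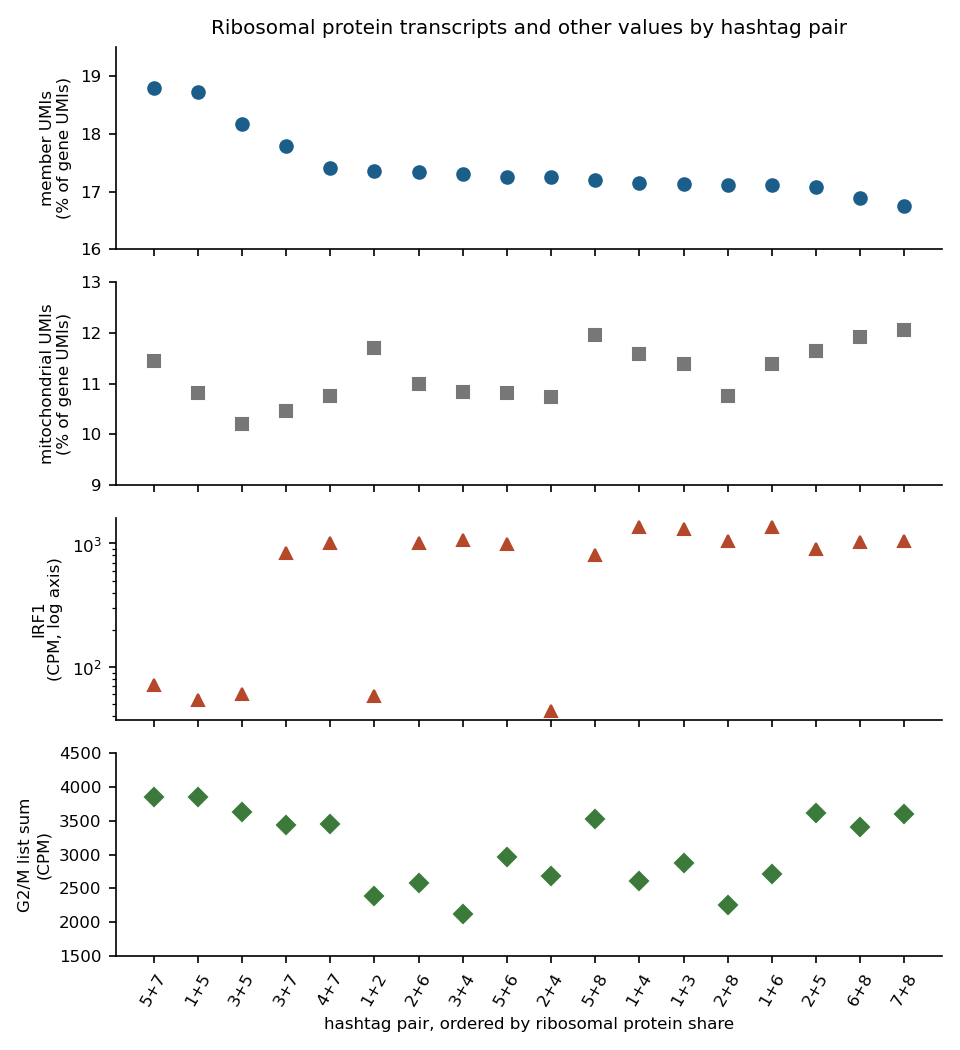
The 18 hashtag pairs ordered by the summed ribosomal protein share (top panel, percent of gene UMIs), with the mitochondrial share in percent, IRF1 in CPM on a log axis and the summed G2/M list in CPM of the same pairs. Each point is 1 pair, axes of the linear panels do not start at 0, and the 3 highest shares (18.2 to 18.8%) fall in pairs with IRF1 under 71 CPM, as do 1+2 and 2+4 further right.

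Single members were steady as well. The span, the highest pair's CPM over the lowest pair's, had a median of 1.17 over the 79 members, against 1.63 over all 9932 genes with at least 1000 UMIs. Only 2 members, RPL39L and RPL23, spanned at least 1.5-fold (2.53% of 79), where the background over all genes was 63.5%. Counting noise widens the span of low genes, so the 1852 genes with at least 20000 UMIs were also used as background. Among those the median span was 1.34 and 29.6% reached 1.5-fold, against 1 of 78 members. At a limit of 1.25-fold, 13 members passed, against 92.3% of all genes and 71.5% of the genes with at least 20000 UMIs. Most members hold far more UMIs than that minimum (396206 for RPS9, 1645132 for RPLP1), so neither background was matched to them in abundance. How much of the gap in span is counting noise was not tested. Of the small subunit 0 of 32 members spanned 1.5-fold, and of the large subunit 2 of 47.

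**Figure D2:**
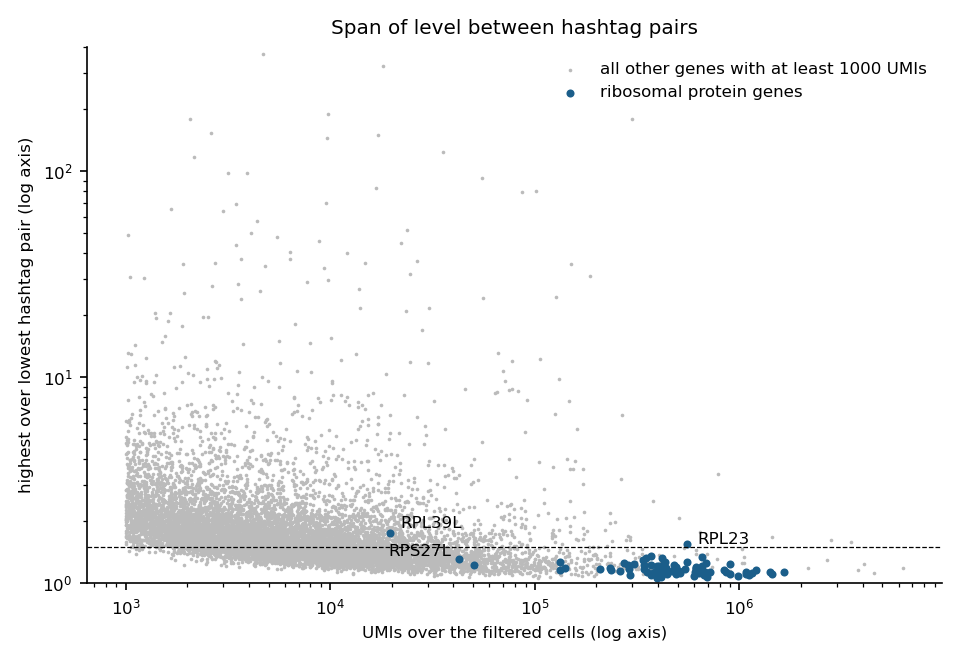
Span between hashtag pairs (highest over lowest, log axis) against UMIs over the filtered cells (log axis) for every gene with at least 1000 UMIs, with ribosomal protein genes in blue and a dashed line at 1.5-fold. The members lie along the lower edge of the cloud, with RPL39L (1.76) and RPL23 (1.55) above the line.

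The steadiest members came from both subunits. RPS9, a core protein of the small subunit, ran from 1557 CPM (2+5) through a median of 1613 to 1662 CPM (1+5), a span of 1.07 (interval 1.04 to 1.10). RPL12 (1.08), RPL19 (1.08) and RPL29 (1.09) were close to it. They were named for their small spans, so their place under the median span of the set follows from that choice.

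Most members shared their highest pairs. Pair 5+7 was highest for 37 members, 1+5 for 31 and 3+5 for 3, together 71 of 79, where the background for these 3 pairs was 29.3% of all genes and 37% of genes with at least 20000 UMIs. All 3 of these pairs lay above all 15 others for 35 members, against 3.91% and 7.61% of genes. These pairs were singled out after their values had been seen. Pair 7+8 was lowest for 24 members, against 7.89% and 13.3% of genes. Since the members share 1 denominator and 1 set of cells, these counts do not make 79 separate observations.

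RPL23, a large subunit protein at the interface with the small subunit, had the widest span of the abundant members. It was at 1903 CPM in pair 2+8, a median of 2251 CPM, and 2946 CPM in pair 5+7, a 1.55-fold span (interval 1.52 to 1.58). Pair 1+5 was next at 2830 CPM and pair 3+5 after it at 2579 CPM. The 3 pairs with the highest summed share were thus also the highest for RPL23, and its share of all member UMIs still spanned 1.41-fold. Over the 18 pairs, the share of member UMIs that went to RPL23 was most like that of RPS3 (Pearson's r 0.945), RPL37A (0.902), RPL7 (0.874) and RPL27A (0.854), and most unlike that of RPL29 (-0.889) and RPL12 (-0.830). These r describe 18 pairs of 1 library whose shares add up to a fixed total.

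Other large subunit members with wide spans were also highest in pair 5+7, 1+5 or 3+5. RPL7 ran from 2526 CPM (2+8) to 3382 CPM (5+7), a span of 1.34. RPL27A ran from 1391 CPM (2+8) to 1890 CPM (5+7), a span of 1.36, and RPL6 from 1287 CPM (7+8) to 1717 CPM (1+5), a span of 1.33. RPL4, which lines the exit tunnel, ran from 1205 CPM (2+5) to 1557 CPM (3+5), a span of 1.29. For RPL7 and RPL6 all 3 of these pairs lay above the other 15, which was not so for RPL27A and RPL4.

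RPL5 and RPL11, which join the ribosome with the 5S ribosomal RNA as a unit, did not span alike. RPL5 was at 1437 CPM in pair 7+8, a median of 1726 CPM and 1909 CPM in pair 1+5, a span of 1.33 (interval 1.30 to 1.36). RPL11 was at 2591 CPM in pair 7+8, a median of 2684 CPM and 2949 CPM in pair 1+5, a span of 1.14 (interval 1.12 to 1.16). They shared the highest and the lowest pair. For RPL5 the pairs 7+8, 5+8 (1465 CPM), 6+8 (1483 CPM) and 2+5 (1511 CPM) were the lowest.

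RPL13A, the member of the interferon-gamma-activated GAIT complex, ran from 1653 CPM (5+6) through a median of 1790 to 2100 CPM (5+7), a span of 1.27 (interval 1.25 to 1.30). Pairs 5+7 and 1+5 (2053 CPM) were the highest, and pair 1+2 (1928 CPM) came next. Of its partners in that complex, EPRS, which encodes the glutamyl-prolyl-tRNA synthetase, spanned 1.37-fold (interval 1.26 to 1.49). SYNCRIP spanned 1.31-fold (interval 1.22 to 1.40) and GAPDH 1.14-fold. The intervals of EPRS and SYNCRIP overlap that of RPL13A. None of these 4 genes reached 1.5-fold, where the background was 63.5% of all genes and 29.6% of genes with at least 20000 UMIs.

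The acidic stalk proteins, which recruit elongation factors, spanned little: RPLP0 1.19-fold (2204 to 2631 CPM), RPLP1 1.13-fold (6177 to 7010 CPM) and RPLP2 1.09-fold (2567 to 2806 CPM). RPLP1 was the most abundant member at 6578 CPM over all pairs. With 3′ UMI counts a level is not divided by transcript length. Of small subunit members with a known further role, RPS6, the substrate of the S6 kinases, spanned 1.24-fold (1123 to 1388 CPM), and RPS3, which also acts in DNA repair, 1.24-fold (3375 to 4177 CPM). RPSA, also known as the laminin receptor, spanned 1.18-fold, RPS19, the gene most often mutated in Diamond-Blackfan anaemia, 1.17-fold, RPS27A, made as a fusion with ubiquitin, 1.14-fold, and the X-linked RPS4X 1.13-fold. RPS26, at 485 CPM (1+6) to 618 CPM (1+5), spanned 1.27-fold. RPL3 (1.21-fold) and RPL10 (1.14-fold), both close to the peptidyl transferase centre, and RPL36A (1.18-fold) completed the large subunit members named for their role.

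Some paralogs had wider spans than their parent genes. RPL39L, a paralog of RPL39 known from testis and from tumours, was at 58.5 CPM in pair 1+2, a median of 76.0 CPM and 103 CPM in pair 2+5, a span of 1.76 (interval 1.56 to 1.98). RPL39, a small protein of the exit tunnel, was at 1127 CPM (1+3), 1162 CPM (median) and 1244 CPM (1+5), a span of 1.10 (interval 1.07 to 1.13). Pairs 1+2, 1+4 (59.9 CPM), 1+6 (60.5 CPM) and 1+3 (63.2 CPM) were the lowest for RPL39L, and 2+5, 6+8 (98.9 CPM) and 5+6 (98.8 CPM) the highest. The highest pairs of RPL39L were therefore not those of the set.

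RPS27L, the paralog of RPS27, ran the other way in some of these pairs: 146 CPM in 2+5, a median of 174 CPM and 192 CPM in 1+3, a span of 1.31 (interval 1.21 to 1.43). RPS27 was at 974 CPM (6+8), 1045 CPM (median) and 1116 CPM (5+7), a span of 1.15. RPL22L1, a paralog of RPL22 outside the symbol rule, was at 192 CPM in pair 1+3, a median of 253 CPM and 323 CPM in pair 2+5, a span of 1.69 (interval 1.58 to 1.80), whereas RPL22 spanned 1.19-fold (861 to 1022 CPM). RPL22L1 and RPL39L were thus both highest in 2+5, the pair in which RPS27L was lowest. That pair had the fewest cells (166). For RPL39L its interval (94.4 to 112 CPM) overlaps that of 6+8 (93.8 to 104 CPM). For RPS27L its interval (136 to 157 CPM) overlaps that of 3+7 (152 to 167 CPM). Of the other ribosomal proteins outside the rule, RPL7L1 spanned 1.44-fold, RPL26L1 1.29-fold, the scaffold protein RACK1 1.20-fold, FAU, made as a fusion with a ubiquitin-like protein, 1.12-fold, and RPL36AL 1.12-fold. Of the 7 genes on this list 1 reached 1.5-fold, against 63.5% of all genes and 29.6% of genes with at least 20000 UMIs. Reads from near-identical copies can be split or dropped in counting, which leaves the level of each paralog uncertain.

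**Figure D3:**
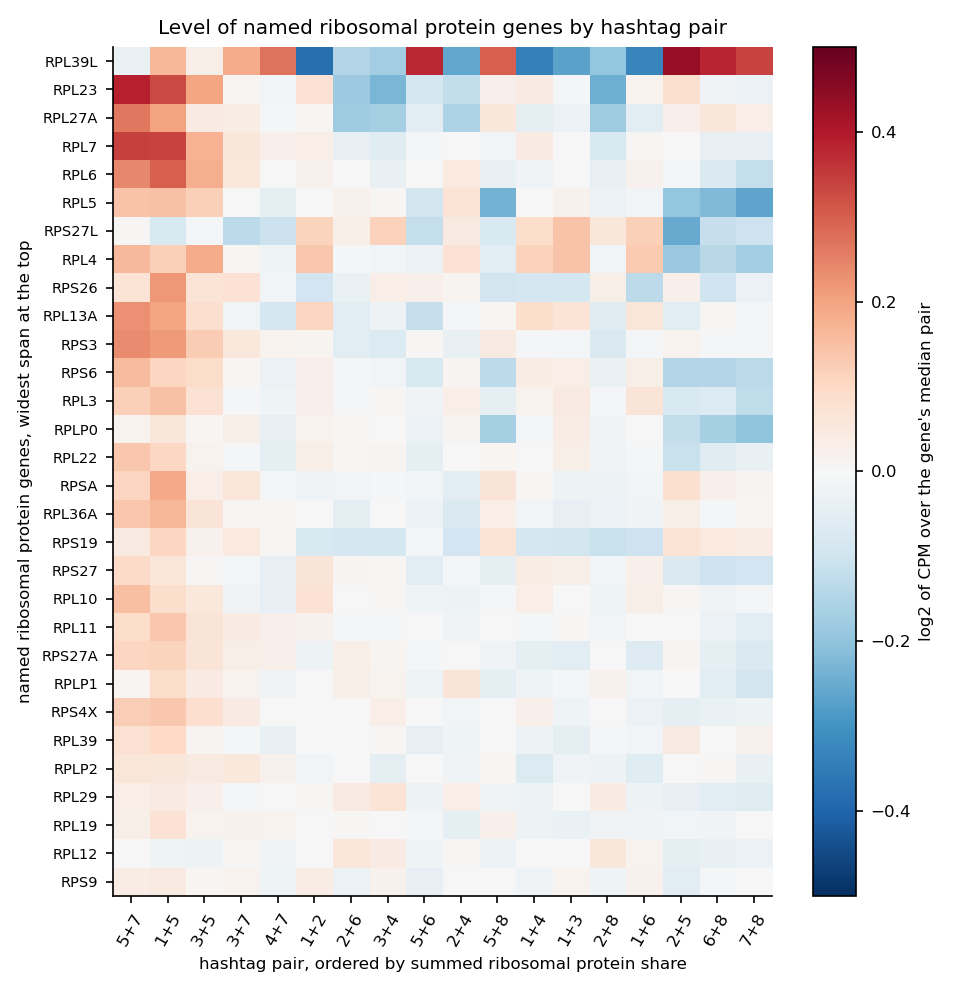
Level of named ribosomal protein genes (rows, widest span at the top) in the 18 hashtag pairs (columns, ordered by the summed share), as log2 of CPM over the gene's own median pair. Most rows are red in the first 3 columns, and RPL39L and RPS27L depart from that order.

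Other genes tied to the ribosome were taken from fixed lists, and their counts at 1.5-fold stand beside a background of 63.5% of all genes (median span 1.63) and 29.6% of genes with at least 20000 UMIs. Of 25 other tract-bearing mRNAs, 3 reached 1.5-fold (SNHG8 1.84, SNHG1 1.68 and the initiation factor EIF4B 1.52), with a median of 1.25. TPT1 (1.13), EIF3H (1.13) and EEF1G (1.17) were their steadiest. Of 35 ribosome biogenesis genes 29 reached 1.5-fold, with a median of 1.80. MYC, which drives transcription of this class, ran from 34.8 CPM (5+7) to 152.8 CPM (1+2), a span of 4.39. NOP16 (2.68) and MYBBP1A (2.42) followed, and NHP2 (1.22), NOP10 (1.23) and FBL (1.27) were the steadiest. The summed biogenesis list was lowest in 5+7 (4279 CPM), the pair with the highest ribosomal protein share, next lowest in 7+8 (4321 CPM), the pair with the lowest, and highest in 2+4 (6347 CPM). Of 78 genes named as mitochondrial ribosomal proteins, among them the antisense RNA MRPL20-AS1 by its symbol, 6 reached 1.5-fold, with a median of 1.30. The antisense RNA is 1 of these 6 (1.55, interval 1.15 to 2.08). MRPL33 (1.83) and MRPL34 (1.67) were the widest of these. Of the 13 mitochondrially encoded genes 0 reached 1.5-fold.

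The member share was also taken cell by cell, where its spread includes the counting noise of each cell. With each of 5956 cells thinned to 10000 UMIs (158 shallower cells left out), the median share was 17.3%, the 5th to 95th percentile 14.0 to 20.9% and the full range 8.46 to 32.9%. Small and large subunit totals went together, with a Spearman rho of 0.872 (median over pairs, range 0.825 to 0.899). The other tract-bearing mRNAs also went with the members (0.514, range 0.418 to 0.622). Ribosome biogenesis genes (-0.0292), the S phase list (-0.0102) and depth (0.0472) had medians near 0, and the mitochondrial ribosomal proteins 0.191. These values describe cells of 1 library whose shares have the same denominator.

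Between pairs, 5+7, 1+5 and 3+5 had both the highest G2/M sums and the highest member shares. Within pairs, cells with more G2/M transcripts had a lower member share. The rho was -0.258 (range -0.460 to -0.0719, below 0 in 18 of 18 pairs), and -0.327 over non-mitochondrial UMIs. In the tenth of cells with the most G2/M transcripts the share had a median over pairs of 16.5%, against 17.3% in the rest, and it was lower in 18 of 18 pairs. The tenth with the most interferon-list transcripts gave 16.5% against 17.3%, also lower in 18 of 18 pairs, with a rho of -0.143 (range -0.350 to 0.00557, below 0 in 17 of 18 pairs). The relation to mitochondrial transcripts (rho -0.274) was -0.0147 over non-mitochondrial UMIs.

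Members differed in how unevenly cells held them. The variation beyond counting noise, as a coefficient of variation over thinned cells (median over pairs, without the KRT81-high cells), was 35.5% for RPL39L, 32.1% for RPL23, 27.6% for RPS27L, 24.1% for RPL27A and 22.7% for RPS26. The median over members was 17.4%, and RPL41, the shortest ribosomal protein, was lowest at 12.3%. RPL23 held a mean of 22.6 UMIs per 10000 with a Fano factor (variance over mean, 1 for pure counting) of 3.32. RPL39L held a mean of only 0.756 UMIs with a Fano factor of 1.10, and RPS27L 1.80 UMIs with 1.14. Over the pairs the factor ran from 0.934 to 1.33 for RPL39L and from 0.942 to 1.39 for RPS27L, at the low end no more than pure counting. The places of these 2 genes thus rest on few UMIs per cell. With the KRT81-high cells included the order was another: RPS24, a small subunit protein named after its values were seen, led at 48.4%, followed by RPL39L (41.8%), RPS26 (32.9%) and RPL23 (32.7%). The Fano factor of RPS24 was 5.39 with these cells and 1.55 without them.

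In the KRT81-high cells many genes differed in level, ribosomal protein genes among them. Of all genes with at least 1000 UMIs, 27.2% were at least 1.5-fold higher in these cells and 24.2% lower by that factor. The KRT81-high cells were taken as cells with at least 5 KRT81 UMIs per 10000, a limit set after seeing the data. They were 2.62% of the filtered cells, 120 of them had a pair, and few cells lay near the limit (3 between 2 and 5, 5 between 5 and 8 per 10000). KRT81 stood at 5671 CPM in them and 3.30 CPM in the other cells, LDHB at 690 against 0.416 CPM and S100A9 at 608 against 0.427 CPM, the last 2 genes named after their values were seen. Median depth was 41904.5 UMIs against 29860.5, and the mitochondrial share 4.92% against 11.3%. The part of depth and mitochondrial share in the values below was not tested. The summed member share was 20.2% against 17.4%, and 21.2% against 19.6% over non-mitochondrial UMIs.

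Single members lay far to both sides of that sum. RPS24 was at 7408 CPM against 1759 CPM, a ratio of 4.21 (interval 4.17 to 4.26), and its ratio within pairs ran from 2.85 to 5.16. RPS26 (2.74), RPL22 (2.45), RPL32 (2.23) and RPS28 (2.21) were also higher, each above 1 in 18 of 18 pairs, and RPL39L (2.04) was above 1 in 17. At the other end RPS27L was at 77.9 CPM against 176 CPM, a ratio of 0.443 (interval 0.400 to 0.489). RPL23 was at 1054 CPM against 2312 CPM, a ratio of 0.456 (interval 0.444 to 0.468), and RPL19 (0.510), RPL21 (0.533), RPS14 (0.585), RPL4 (0.588) and RPL27A (0.592) were also lower, each below 1 in 18 of 18 pairs. RPL32, RPS28, RPL21 and RPS14 were named after their values were seen. RPL5 was at a ratio of 1.89. RACK1 (0.577) and TPT1 (0.447) were lower as well, and FAU was at 1.06.

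Over the set, 23 of 79 members (29.1%) had a ratio of at least 1.5 and 10 (12.7%) of at most the inverse of it, with a median of 1.14. The background was 27.2% and 24.2% of all genes, or 18.5% and 27.6% of genes with at least 20000 UMIs. The share of higher members was close to that of all genes and above that of genes with at least 20000 UMIs, which 78 of the members are. The share of lower members was under both backgrounds. With the KRT81-high cells left out, RPL39L spanned 1.86-fold between pairs and the summed ratio was 1.13.

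**Figure D4:**
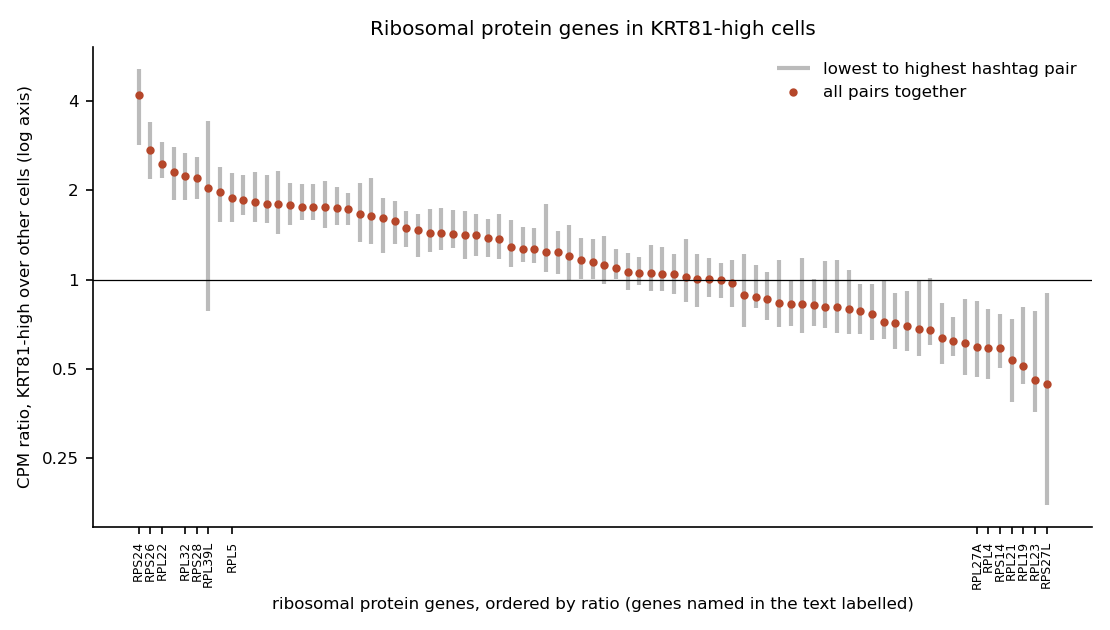
Ratio of CPM in KRT81-high cells over the other cells (log axis) for the 79 ribosomal protein genes, ordered by ratio and labelled where named in the text, with red points for all cells together and grey bars from the lowest to the highest hashtag pair. RPS24 (4.21) is highest and RPS27L (0.443) lowest, and 46 members lie between the inverse of 1.5 and 1.5.

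Some members were more alike from cell to cell than others. Over 5842 thinned cells without the KRT81-high ones, Pearson's r within pairs was computed for all 3081 gene pairs of members. RPL35A on chromosome 3 and RPS14 on chromosome 5 were the most alike (0.490), and also when each was taken as a share of all member UMIs (0.356). Of the 10 most alike gene pairs, 8 had both genes on 1 chromosome, where 5.84% of all 3081 do. They were the chromosome 16 genes RPS2, RPS15A and RPL13 with each other (0.409, 0.405 and 0.353), the chromosome 17 genes RPL23, RPL19 and RPL27 with each other (0.376, 0.365 and 0.358), RPL30 with RPL8 on chromosome 8 (0.369), and RPS7 with RPS27A on chromosome 2 (0.364). RPS3 with RPS2 (0.342) was the other. These genes follow from the order of r and were named after their values were seen.

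The median r was 0.195 for the 180 gene pairs on 1 chromosome and 0.156 for the 2901 on different ones, so most of the former were not set apart. Among the 20 most alike, 9 shared a chromosome. Taken as shares of all member UMIs, 4 of the 10 and 9 of the 20 most alike did. Abundant genes have less counting noise and so reach a higher r. RPL23 and RPS27L were the least alike (-0.101). The cells of all pairs share 1 library, and these r are given with no test.

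**Figure D5:**
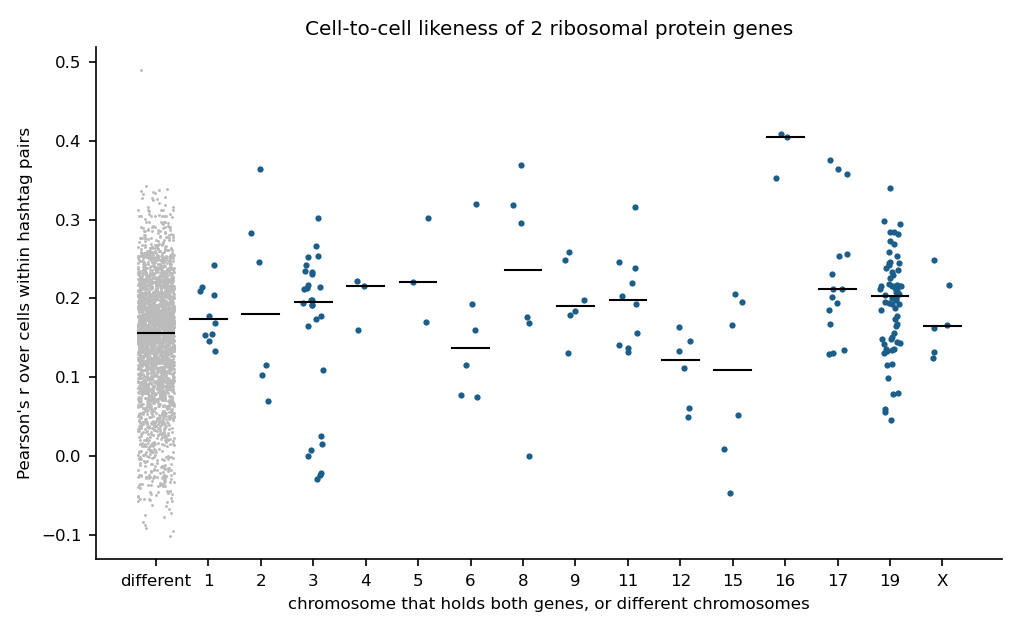
Pearson's r over cells within hashtag pairs for every 2 ribosomal protein genes, with gene pairs on different chromosomes in grey at the left and gene pairs on 1 chromosome in blue by chromosome, and black lines at the medians. The 3 gene pairs of chromosome 16 (0.353 to 0.409) stand above the median of 0.156 for different chromosomes, and the highest grey point is RPL35A with RPS14 (0.490).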

How the data were processed

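One suspension of OVCAR5 cells was read as 2 libraries. What the authors deposited are UMI counts for each feature in each barcode, not normalised. The header of the matrix names Cell Ranger 5.0.1. Version 2.1.1 of Cell Ranger, with GRCh38, appears in the submitters' processing notes, and which of them applies is unresolved. A cell was kept when it had 500 or more genes and no more than 20% of its UMIs were mitochondrial. A pair is the 2 most abundant hashtags where the second held at least 5 times the third plus 1 UMI, with at least 100 cells. No doublet caller was run, so doublets within a pair remain.

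For each pair, UMIs were added up over its cells and scaled by the total of all genes to CPM. Levels carry exact Poisson, ratios exact conditional and shares Wilson intervals. Rank and linear correlations and Fano factors used cells thinned to 10000 UMIs. Sequences are from RefSeq (GRCh38.p14). Python 3.11.15, numpy 2.4.6, scipy 1.17.1 and pandas 2.3.3 were used. Spans, and ratio intervals between preset pairs, were tested on simulated counts, and the other calculations were not. Members and lists were chosen with earlier results of these data known. Named were the 10 members with the largest and the 5 with the smallest span, the 6 whose share of member UMIs spanned most, 20 members with known roles, and up to 3 genes at each end of every other list. Some genes are not reported here by name and remain in the counts. Alternatives covered the cell filter, hashtag rule, denominator, thinning, cell weights and removal of KRT81-high cells.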

Additional observations from a re-analysis of the deposited data

Results flagged for a closer look

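Barcodes outside the comparisons also held ribosomal protein transcripts. In the 603 barcodes that failed the cell filter they took 7.22% of UMIs (Wilson interval 7.20 to 7.25%), with 57.9% mitochondrial UMIs, and 17.1% of non-mitochondrial UMIs. In the 1087 cells without a hashtag pair, at a median depth of 51617 UMIs, they took 19.1% (interval 19.08 to 19.10%), and 21.2% of non-mitochondrial UMIs. Cells with a pair stood at 17.4% and 19.6%.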

How the results depend on the processing

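The summed member share's highest over lowest pair (1.122) was 1.151 with no cell filter, 1.110 under a stricter filter (1000 or more genes, no more than 15% mitochondrial), 1.131 without KRT81-high cells, 1.114 over non-mitochondrial UMIs, 1.145 over non-mitochondrial UMIs without the members, 1.126 with thinned cells and 1.125 with every cell weighing the same. The median span (1.17) was 1.193 over non-mitochondrial UMIs without the members. The count of members at 1.5-fold was 2 in all 9 settings, RPL39L and RPL23 in each. The rho with mitochondrial transcripts (-0.274) was -0.0147 over non-mitochondrial UMIs. Of 248 recomputed spans of the 31 named members, 220 stayed inside the counting interval and 28 left it. The largest move was RPL39L, at 2.28 with thinned cells against 1.76. The removal of KRT81-high cells and the cells left unthinned were chosen after seeing the data. No paired analysis was possible because the series holds 1 pooled library of each kind.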

Other observations

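Some single cells lay far above the others for a member, and examples are given here, named after their values were seen. After thinning to 10000 UMIs the highest cell held 270 UMIs of RPL10, where the median cell held 28 and the 99th percentile was 54. For RPS12 the highest cell held 211, the median cell 43 and the 99th percentile 69. The highest cell held 167 UMIs of RPL28 (99th percentile 48), and 108 UMIs of RPL9 (99th percentile 30). The Fano factor of RPL10 had a median of 2.33 over pairs, and the largest factor in any pair was 8.69.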
